A study of Homo sapiens with 8 samples.

Results

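SK-Hep1 cells that ectopically expressed SLC29A2 were compared with control SK-Hep1 cells in the 4 libraries, of 8 in the series, that were prepared without dipyridamole. SK-Hep1 is an established human cell line from a liver tumour that is often described as endothelial-like. The 4 libraries were SLC29A2-expressing cells with the control treatment, SLC29A2-expressing cells with sorafenib, control cells with the control treatment, and control cells with sorafenib. They were chosen by their labels, with 2 libraries for each cell type, and each SLC29A2 library was paired with the control library of the same sorafenib status. Sorafenib inhibits RAF kinases and several receptor tyrosine kinases, so the sorafenib pair compares 2 cell types that both carried the drug. Poly(A)-selected RNA was sequenced, with 1 library per condition and no replicate. The promoter driving SLC29A2, whether the cells were a pool or a clone, what the control cells carried, and the doses and times of treatment are not stated in the sources. With 1 line of each kind, SLC29A2 itself and any other difference between the lines, such as passage or selection, cannot be told apart.

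SLC29A2 encodes ENT2, an equilibrative transporter of the plasma membrane that moves nucleosides and nucleobases down their concentration gradients. Its close relative ENT1, encoded by SLC29A1, is the main equilibrative nucleoside transporter of most cells. Both feed nucleoside salvage, in which kinases such as thymidine kinase trap imported nucleosides as nucleotides, and both set extracellular adenosine, which signals through its own receptors. Dipyridamole blocks both transporters and was absent from the comparison.

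The 4 libraries held 15.4 and 14.5 M reads in SLC29A2 cells, against 16.7 and 15.6 M reads in control cells, and 1 read in a gene of 2 kb was worth 0.03 to 0.0345 FPKM. Values below are FPKM, given within each cell type first with the control treatment and then with sorafenib. Differences are SLC29A2 cells minus control cells on the log2(FPKM + 1) scale, averaged over both pairs, and they understate the change of genes with low FPKM. Endothelial markers were mostly near 0 in both cell types. Of 12 endothelial markers 2 averaged at least 1 FPKM, and PECAM1 and CDH5, which define endothelium, stayed at or under 0.188 FPKM in all 4 libraries. The summed endothelial markers were 54.6 and 59.4 FPKM in SLC29A2 cells, against 62.8 and 60.8 FPKM in control cells, and EGFL7 made up most of each sum. Of 13 hepatocyte markers 2 averaged at least 1 FPKM and 8 were at 0 in all 4 libraries, and of 8 leukocyte markers 1 averaged at least 1 FPKM. Of 12 epithelial markers 7 averaged at least 1 FPKM, among them KRT8 and KRT18. The epithelial markers EPCAM and CDH1 stayed at or under 0.338 FPKM in all 4 libraries, and GRHL2 was at 0. Of 10 fibroblast and mesenchymal markers 8 averaged at least 1 FPKM.

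SLC29A2 (ENSG00000174669, GRCh38 chromosome 11, 66362521 to 66372214, minus strand) had 1476.5 and 3040 FPKM in SLC29A2 cells, against 7.81 and 7.11 FPKM in control cells. The groups did not overlap, and the gene differed by 7.97 ± 0.21 log2 units (SE, limma adjusted p = 1.7e-06). The 2 pairs gave 7.39 and 8.55. By FPKM it ranked 32nd and 9th of all genes in SLC29A2 cells, against 8639th and 9100th in control cells, and it took 0.357% and 0.735% of reads in SLC29A2 cells, against 0.00189% and 0.00172% in control cells. The sorafenib library of SLC29A2 cells thus held the most SLC29A2 RNA of the 4. Under dipyridamole the levels were 2054 and 2025 FPKM in SLC29A2 cells, against 7.59 and 7.74 FPKM in control cells. The 20 nearest measured genes, 10 on each side, held 0 that rose and 1 that fell, where 7.91% and 8.53% of all genes did. The faller was RAB1B, a small GTPase of the secretory pathway, at -0.28 ± 0.05. After the median difference of each decile of transcript GC content was removed (GC centring), 2 of the 20 passed as higher. They were CNIH2 at 0.47 and RIN1 at 0.24 (limma adjusted p = 0.0496 and 0.046). With GC centring 6.76% of all genes passed as higher.

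**Figure D1:**
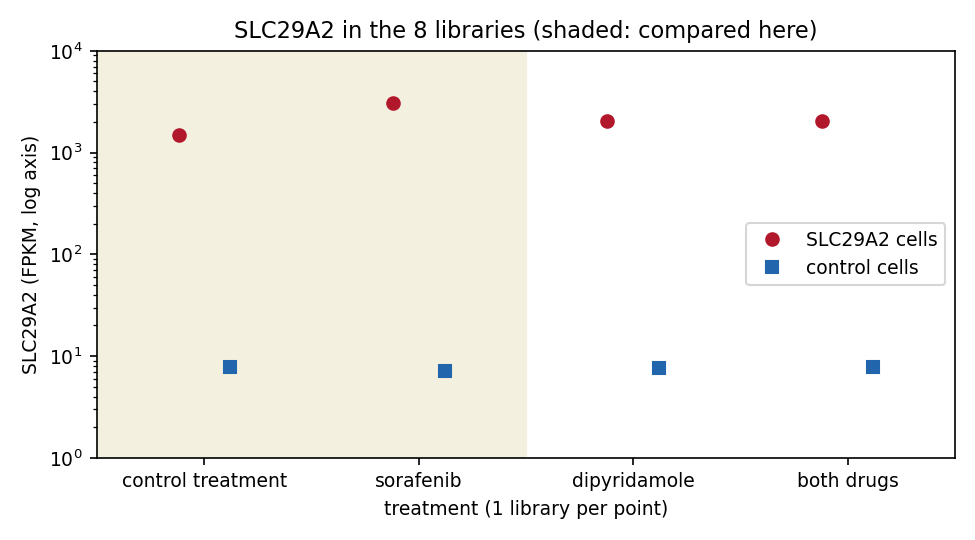
SLC29A2 in each of the 8 libraries, in FPKM on a log axis, by treatment; circles are SLC29A2 cells, squares control cells, and the shaded treatments are the ones compared here. All SLC29A2 libraries lie between 1476.5 and 3040 FPKM and all control libraries between 7.11 and 7.81 FPKM.

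Beyond the transgene the differences were many and small. Of 13554 genes that averaged at least 1 FPKM over the 4 libraries, 2228 (16.4%) passed an adjusted p of 0.05 in limma, with 1072 higher (7.91%) and 1156 lower (8.53%) in SLC29A2 cells. All 2228 had the same direction in both pairs, which the test itself all but fixes, since its residual is the disagreement between the pairs. Their median absolute difference was 0.31, and 50 reached 1 log2 unit, 34 higher and 16 lower. The fit had 1 residual degree of freedom per gene, so the spread behind each p was mostly the one shared over genes of like level, and it measures only these 4 libraries. The calls depended on that sharing and on the pairing by sorafenib. With no filter on low values, with no sorafenib term, or with no mean-variance trend, 0 genes passed in limma, although 4266, 676 and 3205 had an unadjusted p under 0.05. In a fit over all 8 libraries only SLC29A2 passed (0.00738% of genes). Leaving 1 of the 4 libraries out of that fit moved the difference by over 1.5 times for 66 of the 105 called genes named here other than SLC29A2, 36 without the SLC29A2 library with the control treatment, 40 without the one with sorafenib, and 46 and 48 without the control-cell libraries of those treatments. The counts and differences of called genes below carry that limit. Each count of list members below is to be read against the shares of all genes, 7.91% higher and 8.53% lower.

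A count without a test gave a second view. At least 0.5 log2 units separated the cell types in the same direction in both pairs for 254 genes, 144 higher (1.06%) and 110 lower (0.812%). Among the 124 protein-coding ones 39 were higher and 85 lower, while among the 130 of other classes 105 were higher and 25 lower. Of those 130, 78 were shorter than 200 bases, with a median of 17 reads summed over the 4 libraries. Non-coding genes took 1.88% and 1.83% of reads in SLC29A2 cells, against 1.62% and 1.69% in control cells, and the part of this in the higher non-coding genes was not tested. Across genes other than SLC29A2 the 2 pair differences correlated at r = 0.363, and 71.3% of genes had the same direction in both. These genes share their libraries and are not independent replicates.

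**Figure D2:**
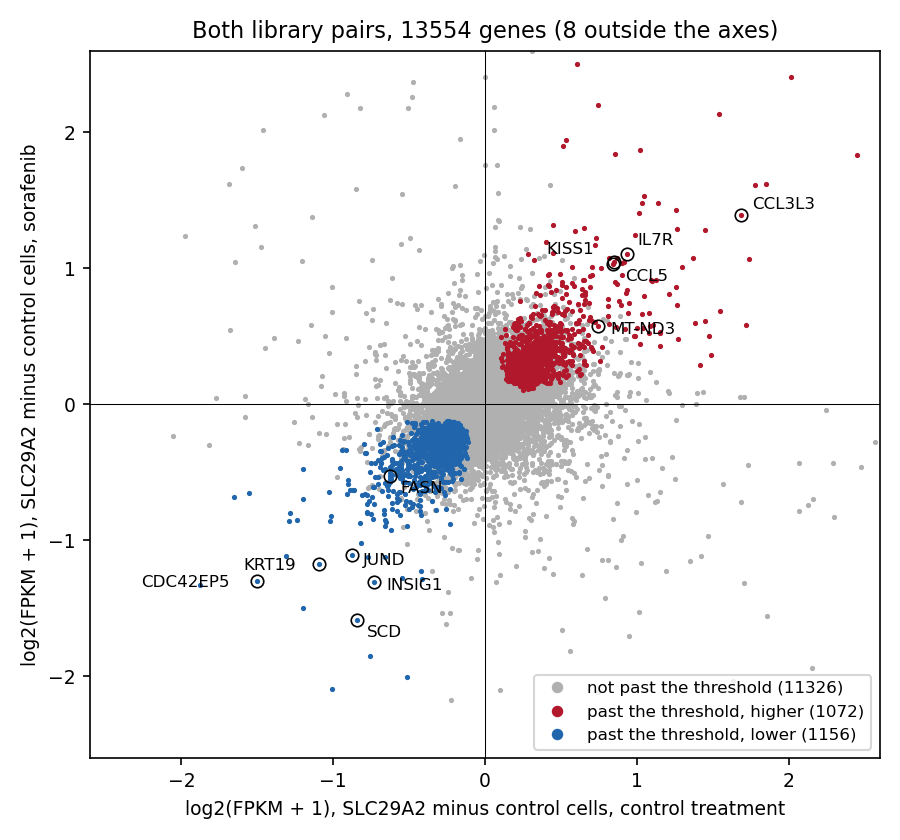
Difference between SLC29A2 and control cells for each of 13554 genes, with the control treatment on the horizontal axis and with sorafenib on the vertical axis, both on the log2(FPKM + 1) scale; red and blue points passed the limma threshold, and circled points are named. The called genes, 1072 higher and 1156 lower, lie in 2 opposite quadrants, a position the test all but fixes, and 8 genes, SLC29A2 among them, lie outside the axes.

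Other genes of nucleoside transport and metabolism were called at a rate near the background: 11 of 56 measured genes passed (19.6%, against 16.4% of all genes), 6 higher and 5 lower. Among 4 measured nucleoside transporters SLC29A1 also rose: it had 127 and 91.5 FPKM in SLC29A2 cells, against 109 and 62.3 FPKM in control cells. That is 0.38 ± 0.08 (adjusted p = 0.016), with higher values in SLC29A2 cells within each pair but overlapping ranges. SLC29A4, a transporter of monoamines and adenosine, had 2.59 and 3.03 FPKM in SLC29A2 cells, against 3.71 and 4.92 FPKM in control cells, and did not pass (-0.48 ± 0.15, adjusted p = 0.064). SLC29A3, the lysosomal member, had 2.49 and 3.02 FPKM in SLC29A2 cells, against 3.04 and 2.80 FPKM in control cells. Its pairs disagreed in sign.

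Of 8 measured genes of extracellular adenosine 2 rose and 0 fell. NT5E, the ectonucleotidase CD73 that makes adenosine from AMP, had 77.3 and 65.1 FPKM in SLC29A2 cells, against 67.0 and 50.2 FPKM in control cells (0.29 ± 0.06). ADORA2B, the low-affinity adenosine receptor, had 15.8 and 11.8 FPKM in SLC29A2 cells, against 12.6 and 9.12 FPKM in control cells (0.33 ± 0.09, adjusted p = 0.041). Both ranges overlapped between the cell types. With GC centring ADORA2B no longer passed (adjusted p = 0.052). ADA, adenosine deaminase, did not pass (-0.35 ± 0.10, adjusted p = 0.058).

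Of 25 measured salvage and dNTP genes 1 rose and 4 fell, a share of calls near the background of all genes. NT5C3A, a cytosolic nucleotidase, had 21.6 and 19.8 FPKM in SLC29A2 cells, against 17.0 and 11.6 FPKM in control cells (0.53 ± 0.10). CDA, cytidine deaminase, had 35.9 and 64.2 FPKM in SLC29A2 cells, against 51.4 and 93.2 FPKM in control cells (-0.52 ± 0.06, adjusted p = 0.003). UPP1, uridine phosphorylase, had 18.6 and 20.5 FPKM in SLC29A2 cells, against 29.6 and 26.7 FPKM in control cells (-0.51 ± 0.08). The groups did not overlap for NT5C3A and UPP1 and overlapped for CDA, which was higher under sorafenib in both cell types. TK1, thymidine kinase, fell by 0.30 ± 0.05. NT5M, a mitochondrial nucleotidase, fell by 0.46 ± 0.13, a call lost after GC centring (adjusted p = 0.11). Of 20 genes of de novo purine and pyrimidine synthesis 2 rose and 1 fell. The risers were NME2, a nucleoside diphosphate kinase whose reads can be split with the NME1-NME2 readthrough gene, at 0.59 ± 0.10, and PFAS at 0.18 ± 0.05. PRPS1, which makes the ribose donor PRPP, fell by 0.31 ± 0.05.

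Chaperones and folding enzymes of the endoplasmic reticulum were higher as a group. Of 20 measured members 18 rose and 0 fell, where 7.91% of all genes rose. The median difference was 0.28, against -0.0018 for all genes tested. CANX and CALR encode calnexin and calreticulin, the lectin chaperones of glycoproteins. CANX had 1613 and 1478 FPKM in SLC29A2 cells, against 1232 and 1107 FPKM in control cells (0.40 ± 0.05, adjusted p = 0.0038). CALR had 3175 and 2872 FPKM in SLC29A2 cells, against 2655 and 2178 FPKM in control cells (0.33 ± 0.06). For both genes the groups did not overlap. DNAJB9, a co-chaperone induced by unfolded protein, had the largest difference of the list, with 24.0 and 22.3 FPKM in SLC29A2 cells, against 19.1 and 14.8 FPKM in control cells (0.44 ± 0.09). HSP90B1, the HSP90 of this compartment, had 1308 and 1069 FPKM in SLC29A2 cells, against 1071 and 843 FPKM in control cells. HSPA5, the HSP70 known as BiP, had 482 and 395 FPKM in SLC29A2 cells, against 415 and 331 FPKM in control cells (0.23 ± 0.05, adjusted p = 0.015). The ranges of HSP90B1 and HSPA5 overlapped between the cell types, and within each pair SLC29A2 cells were higher. DNAJB11, MANF, SYVN1, HYOU1 and PDIA4 rose by 0.25 to 0.40. The 2 members that did not pass were EDEM1, at 0.19 ± 0.06 (adjusted p = 0.064), and the transcription factor XBP1, at 0.06 ± 0.06. XBP1 had 47.8 and 63.2 FPKM in SLC29A2 cells, against 44.7 and 61.8 FPKM in control cells. With GC centring 17 of the 20 rose and 0 fell. Of 16 measured cytosolic heat shock genes 1 rose and 3 fell, where 7.91% and 8.53% of all genes did. Their median was 0.04, and 12 of the 16 had a positive difference. The riser, at 0.34 ± 0.09, was lost with GC centring. The fallers included HSPB1, a small heat shock protein, at -0.47 ± 0.05.

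Genes of this list are known to be induced through the endoplasmic reticulum stress element (ERSE), bound by NF-Y at CCAAT and by ATF6 or XBP1 at CCACG, so the upstream sequence was searched for it. An exact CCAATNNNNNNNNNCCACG on either strand, within 250 bases upstream of the RefSeq gene start, was found for 6 of the 19 chaperone genes with a promoter in the table (31.6%). Of all 35116 promoters 26 (0.074%) held it, and of 14334 promoters of tested genes 17 (0.119%) did. The 6 were CANX, CALR, HSP90B1, HSPA5, CRELD2 and XBP1. Because genes of this list are known to be induced this way, that share does not bear on the difference between the cell types. The 120-base stretches around the element are shown for the most abundant of them. They are RefSeq sequence on GRCh38.p14, 5′ to 3′ in the direction of the gene, with the element in capitals. In CALR and HSP90B1 it lies on the opposite strand and so reads from CGTGG to ATTGG, and HSP90B1 had 2 matches, of which 1 is shown.
CANX, chr5:179698727-179698846, plus strand: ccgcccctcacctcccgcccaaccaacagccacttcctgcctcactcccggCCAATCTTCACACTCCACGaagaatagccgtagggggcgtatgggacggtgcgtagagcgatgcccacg
CALR, chr19:12938359-12938478, plus strand: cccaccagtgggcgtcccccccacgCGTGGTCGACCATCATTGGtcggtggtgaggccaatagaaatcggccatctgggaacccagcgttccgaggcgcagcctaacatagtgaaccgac
HSP90B1, chr12:103930270-103930389, plus strand: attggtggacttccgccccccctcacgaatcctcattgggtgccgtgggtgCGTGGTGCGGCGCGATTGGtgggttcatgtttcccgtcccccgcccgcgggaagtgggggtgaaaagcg
HSPA5, chr9:125241344-125241463, minus strand: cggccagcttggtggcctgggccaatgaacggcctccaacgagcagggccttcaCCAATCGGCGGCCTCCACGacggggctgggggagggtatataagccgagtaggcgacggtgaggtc
A match describes these letters only. Of the 6 genes with a match, 5 rose and XBP1 did not pass. Members without an exact match rose as well, among them DNAJB9, DNAJB11, MANF and SYVN1, while EDEM1, also without a match, did not pass. Since 18 of the 20 measured members rose, this comparison cannot tell whether a match goes with the rise.

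Transcripts of the mitochondrial genome, which encode subunits of the respiratory chain and ATP synthase, were also higher. Of 13 measured transcripts 10 rose and 0 fell, with a median of 0.32. MT-ND3, a complex I subunit, had 4103 and 2324 FPKM in SLC29A2 cells, against 2447 and 1559 FPKM in control cells (0.66 ± 0.06, adjusted p = 0.0021). MT-CYB, of complex III, had 146 and 98.8 FPKM in SLC29A2 cells, against 108 and 67.3 FPKM in control cells (0.49 ± 0.05). MT-ND2 rose by 0.35 ± 0.05. The sorafenib library was the lower one in both cell types, and the ranges overlapped although SLC29A2 cells were higher within each pair. The 3 that did not pass were MT-CO1, the most abundant transcript of the list, at 0.14 ± 0.07, MT-CO2 at 0.17 ± 0.06, and MT-ATP8 at 0.34 ± 0.21. Together these transcripts took 4.59% and 3.38% of reads in SLC29A2 cells, against 3.75% and 3.07% in control cells. They come from long shared precursors and so do not vary independently.

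Genes of lipid synthesis were lower in SLC29A2 cells. Of 23 measured genes of cholesterol synthesis and uptake 0 rose and 11 fell, where 8.53% of all genes fell, and the median was -0.27. INSIG1, which retains the sterol sensor SCAP and is itself induced by SREBP factors, had 40.7 and 9.56 FPKM in SLC29A2 cells, against 68.4 and 25.1 FPKM in control cells (-1.02 ± 0.12, adjusted p = 0.0036). SREBF2, which encodes the SREBP2 factor that drives these genes, had 55.2 and 41.8 FPKM in SLC29A2 cells, against 66.8 and 66.0 FPKM in control cells (-0.46 ± 0.09). The groups did not overlap for SREBF2, and for INSIG1 they overlapped, with the sorafenib library lower in both cell types. MVK, mevalonate kinase, fell by 0.47 ± 0.09, FDFT1, squalene synthase, by 0.42 ± 0.08, LSS by 0.35 ± 0.06 and DHCR7 by 0.29 ± 0.05. With GC centring 10 of the 23 fell. Of the 17 of these genes with a RefSeq promoter, 1 (SREBF2) held the sterol regulatory element letters TCACNCCAC on either strand in the 250 bases, against 0.883% of all promoters. Looser forms of the element were not searched.

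Of 15 measured genes of fatty acid synthesis 7 fell and 2 rose. SCD, the desaturase that makes oleate, had 68.3 and 21.6 FPKM in SLC29A2 cells, against 123 and 66.8 FPKM in control cells (-1.22 ± 0.14, adjusted p = 0.0035). FASN, fatty acid synthase, had 1097 and 512 FPKM in SLC29A2 cells, against 1690 and 738 FPKM in control cells (-0.57 ± 0.05, adjusted p = 0.0021). Both were lower in SLC29A2 cells within each pair, with overlapping ranges. ACACA and ACLY, which supply malonyl-CoA and acetyl-CoA, fell by 0.32 ± 0.06 and 0.28 ± 0.05. ELOVL1, an elongase of very long saturated chains, went the other way at 0.31 ± 0.05, as did ELOVL5 at 0.20 ± 0.05. SREBF1 fell by 0.16 ± 0.05 (adjusted p = 0.0495). The ELOVL5 and SREBF1 calls were lost with GC centring, at adjusted p = 0.054 and 0.40.

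Of 26 measured genes of hypoxia and glycolysis 0 rose and 10 fell, with a median of -0.17. PFKFB4, which makes the activator of phosphofructokinase, had 12.6 and 6.30 FPKM in SLC29A2 cells, against 18.6 and 8.56 FPKM in control cells (-0.46 ± 0.10). NDRG1 and BNIP3L, both induced by low oxygen, fell by 0.34 ± 0.08 and 0.34 ± 0.05, and PGK1, phosphoglycerate kinase, by 0.29 ± 0.06. With GC centring 7 of the 26 fell. The list median was -0.24 with the control treatment and -0.09 with sorafenib.

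**Figure D3:**
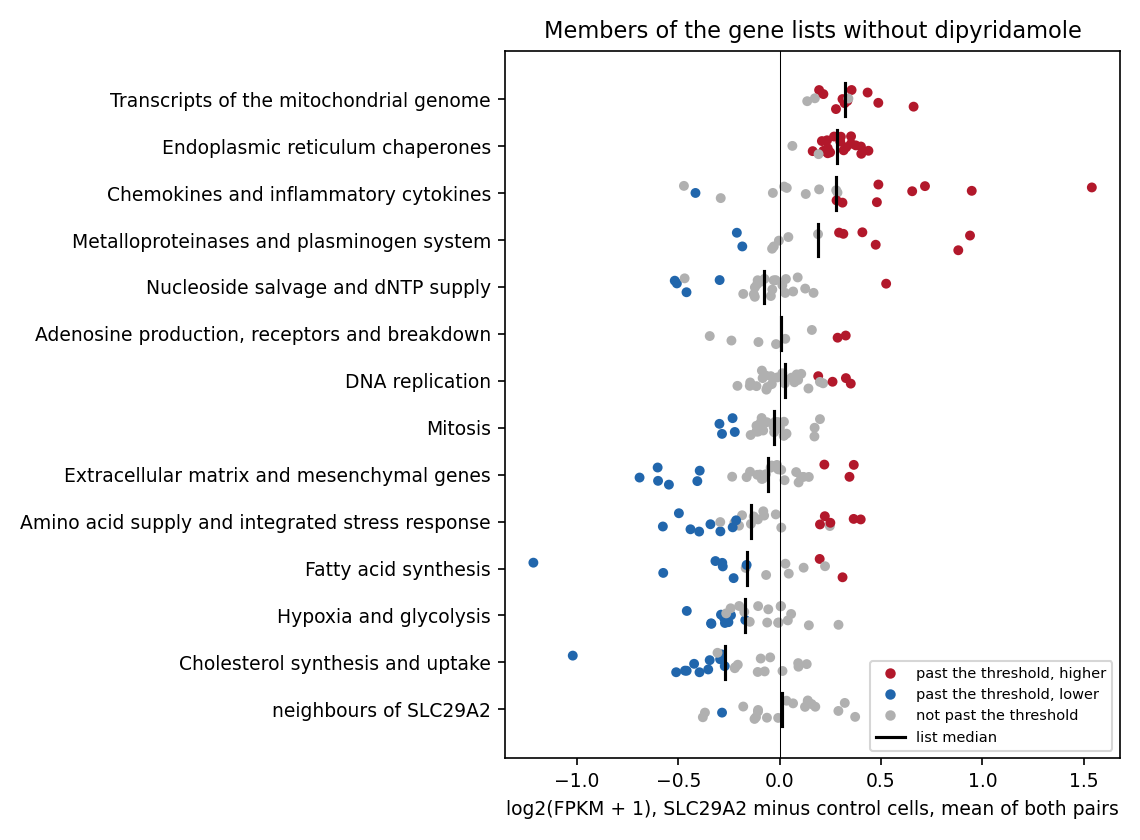
Each point is a measured member of a gene list, placed by its difference between SLC29A2 and control cells on the log2(FPKM + 1) scale, mean of both pairs; red and blue points passed the limma threshold, grey ones did not, and the black bar is the list median. Endoplasmic reticulum chaperones cluster to the right (median 0.28) and cholesterol genes to the left (median -0.27); SLC29A2 belongs to none of the lists drawn.

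Secreted inflammatory factors were higher. Of 18 measured chemokines and inflammatory cytokines 8 rose and 1 fell, with a median of 0.28. CCL5, which recruits T cells and monocytes, had 54.5 and 109.8 FPKM in SLC29A2 cells, against 29.8 and 52.8 FPKM in control cells (0.95 ± 0.06, adjusted p = 0.00071). The groups did not overlap. CCL3L3, a chemokine, had 14.1 and 7.05 FPKM in SLC29A2 cells, against 3.67 and 2.07 FPKM in control cells (1.54 ± 0.13). It belongs to near-identical copies of CCL3, among which reads can be split, so its level is uncertain. IL6 had 12.03 and 9.88 FPKM in SLC29A2 cells, against 8.44 and 5.07 FPKM in control cells (0.65 ± 0.12), without overlap. IL24, an IL-10 family cytokine, rose by 0.72 ± 0.07, and CXCL8, the neutrophil chemokine, by 0.48 ± 0.10. The member that fell was IL32, at -0.42 ± 0.09. IL7R, a receptor subunit for interleukin 7 outside that list, had 14.2 and 25.7 FPKM in SLC29A2 cells, against 6.92 and 11.4 FPKM in control cells (1.02 ± 0.09). PTX3, a soluble pattern recognition protein, and C4BPB, of a complement inhibitor, rose by 0.73 ± 0.10 and 0.87 ± 0.06. Most leukocyte markers were near 0 beside them. The summed level of all leukocyte markers was 1.22 and 3.71 FPKM in SLC29A2 cells, against 1.78 and 2.41 FPKM in control cells, with CD3E and LYZ at 0. The largest was CD14, with 0.596 and 2.02 FPKM in SLC29A2 cells, against 1.21 and 1.59 FPKM in control cells. ITGAM reached 1.18 FPKM in the sorafenib library of SLC29A2 cells.

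The interferon response did not follow as a group. Of 23 measured members 1 rose and 4 fell, where 7.91% and 8.53% of all genes did. IFI44 had 5.50 and 6.54 FPKM in SLC29A2 cells, against 2.50 and 3.54 FPKM in control cells (0.81 ± 0.14), whereas PSMB9, an immunoproteasome subunit, fell by 0.46 ± 0.09. RSAD2, an antiviral gene outside that list, rose by 0.77 ± 0.22 at a low level.

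Of 13 measured genes of metalloproteinases and the plasminogen system 6 rose and 2 fell. KISS1, whose product is a substrate of metalloproteinases and a suppressor of metastasis, had 24.9 and 11.6 FPKM in SLC29A2 cells, against 13.4 and 5.15 FPKM in control cells (0.94 ± 0.09). SERPINB2, an inhibitor of urokinase, had 68.9 and 12.5 FPKM in SLC29A2 cells, against 40.2 and 5.76 FPKM in control cells (0.88 ± 0.08). The sorafenib library was the lower one in each cell type for both genes, and the ranges overlapped. SERPINE2, a further inhibitor, rose by 0.47 ± 0.05, TIMP1 by 0.31 ± 0.05 and PLAU, urokinase itself, by 0.29 ± 0.05. PLAT, the tissue plasminogen activator, fell by 0.21 ± 0.05 and MMP14 by 0.18 ± 0.05, and the MMP14 call was lost with GC centring (adjusted p = 0.082).

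Of 28 measured matrix and mesenchymal genes 3 rose and 6 fell, where 7.91% and 8.53% of all genes did. The other 19 did not pass, and the median was -0.06. MFAP5, a microfibril protein, had 4.82 and 4.28 FPKM in SLC29A2 cells, against 7.89 and 8.01 FPKM in control cells (-0.69 ± 0.12). COL3A1, FBN1 and the transcription factor TWIST1 fell by 0.60 ± 0.10, 0.60 ± 0.09 and 0.55 ± 0.09. FN1, fibronectin, fell by 0.39 ± 0.05, while LOX, which crosslinks collagen, rose by 0.34 ± 0.05. VIM, the intermediate filament of mesenchymal cells, was 676 and 797 FPKM in SLC29A2 cells, against 737 and 805 FPKM in control cells, and did not pass (-0.07 ± 0.05).

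KRT19, a keratin of simple epithelia, had 31.2 and 30.4 FPKM in SLC29A2 cells, against 67.9 and 69.8 FPKM in control cells. The levels hardly moved with sorafenib, the groups lay far apart, and the difference was -1.13 ± 0.06 (adjusted p = 0.00026). KRT8 also fell, by 0.17 ± 0.05 (adjusted p = 0.049, and 0.079 with GC centring), whereas MUC1 rose by 0.52 ± 0.06. The 12 epithelial markers summed to 2448 and 2103 FPKM in SLC29A2 cells, against 2834 and 2305 FPKM in control cells, and KRT8 and KRT18 made up most of each sum. Of the 7 measured 1 rose, 2 fell and 4 did not pass, and their median difference was 0.13. In bulk RNA, fewer cells of one kind and less RNA per cell cannot be told apart. TUBA1A, an alpha tubulin, had 31.0 and 64.9 FPKM in SLC29A2 cells, against 63.9 and 118.8 FPKM in control cells (-0.94 ± 0.06). JUND, a subunit of AP-1, had 66.7 and 87.3 FPKM in SLC29A2 cells, against 123 and 189 FPKM in control cells (-0.99 ± 0.06, adjusted p = 0.00071), without overlap. ALPL, alkaline phosphatase, fell by 0.92 ± 0.12, CREB3L1, a membrane-bound transcription factor of the secretory pathway, by 0.84 ± 0.10, and CDKN1C, an inhibitor of cyclin-dependent kinases, by 0.85 ± 0.14.

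CDC42EP5, which binds the GTPase CDC42, had the most negative difference of the protein-coding genes named by rule, at -1.40 ± 0.16, on few reads: 6 and 23 in SLC29A2 cells, against 36 and 74 in control cells. Counts of 6 to 52 reads lay behind TSPAN15, a tetraspanin, at -1.21 ± 0.19. JAG1, a Notch ligand, had 6.86 and 13.3 FPKM in SLC29A2 cells, against 3.09 and 7.97 FPKM in control cells (0.81 ± 0.12). SLCO4A1, an organic anion transporter, rose by 0.73 ± 0.08.

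Replication and mitotic genes had few calls, in opposite directions. Of 28 measured DNA replication genes 4 rose and 0 fell, where 7.91% and 8.53% of all genes did, and 1 rose with GC centring. The 4 included POLE, the leading-strand polymerase, at 0.26 ± 0.05, and CCNE1, cyclin E1, at 0.35 ± 0.10 (adjusted p = 0.048). CCNE1 was lost with GC centring (adjusted p = 0.067). Of 26 mitotic genes 0 rose and 4 fell, among them CCNB2 at -0.28 ± 0.06 and UBE2C at -0.23 ± 0.05. A list of the integrated stress response and amino acid supply was called more often than the background. Of its 25 measured genes 5 rose and 8 fell, where 7.91% and 8.53% of all genes did, and the median was -0.14. TRIB3, a pseudokinase induced by ATF4, had 29.05 and 72.8 FPKM in SLC29A2 cells, against 39.0 and 95.1 FPKM in control cells (-0.40 ± 0.06). STC2, a secreted glycoprotein of the same response, went the other way at 0.40 ± 0.06. Of 10 measured receptor and RAF kinases listed around the targets of sorafenib, 1 rose and 0 fell, EGFR at 0.33 ± 0.05, a share near the 7.91% of all genes that rose, and 2 rose with GC centring.

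The difference between the cell types was also compared between treatments. With sorafenib against without it, 0 genes passed for the cell type by sorafenib interaction over the 8 libraries (0.0% of genes; 93 had an unadjusted p under 0.05 in limma, and the lowest adjusted p was 0.99999). With dipyridamole against without it, 0 genes passed as well (0.0%), with 2726 at an unadjusted p under 0.05 and a lowest adjusted p of 0.106. When all pairwise interactions were in the model, 1656 genes passed for dipyridamole, 494 more positive under it and 1162 more negative. For sorafenib 0 passed in that model, with 634 at an unadjusted p under 0.05 in limma. The first sorafenib fit had no cell type by dipyridamole term, so differences of that kind widened its spread. Leaving out the SLC29A2 library with dipyridamole alone gave 1 gene for the cell type by dipyridamole interaction.

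In values, the dipyridamole pairs did not carry the same differences. Of the 1072 genes that rose, 7.56% were positive and 64.1% negative in both dipyridamole pairs, where 21.1% and 49.0% of all genes were. Of the 1156 that fell, 15.6% were negative and 52.7% positive in both. Over all genes the medians of those pairs were -0.10 and -0.14, and the 2 control libraries with dipyridamole stood apart, with 2.51% and 2.71% of reads in non-coding genes, against 1.62% to 1.95% in the other 6. KRT19 under dipyridamole had 81.3 and 63.8 FPKM in SLC29A2 cells, against 71.6 and 60.5 FPKM in control cells. Its interaction was 1.26 ± 0.18 (adjusted p = 0.106, and 0.0246 with all pairwise interactions). JUND differed by 0.48 and 0.14 in those pairs, and TUBA1A by 0.20 and 0.11. The list median of endoplasmic reticulum chaperones was 0.23 and 0.32 without dipyridamole, and -0.18 and -0.07 with it. That of cholesterol genes was -0.25 and -0.25 without dipyridamole, and -0.11 and 0.11 with it. Some named genes kept their sign in all 4 pairs, among them INSIG1, SCD, MFAP5, FBN1 and KRT39 (negative), and KISS1 and SERPINB2 (positive).

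**Figure D4:**
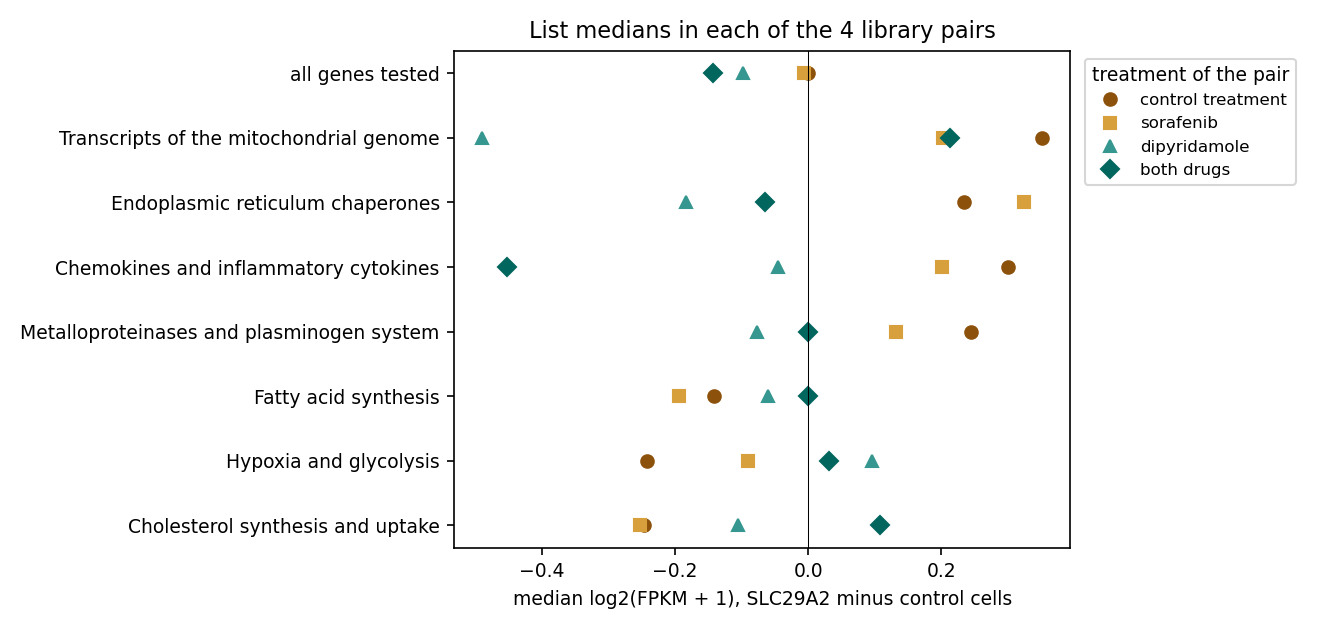
Median difference between SLC29A2 and control cells on the log2(FPKM + 1) scale, for all genes and for 7 gene lists, in each of the 4 library pairs; brown and ochre symbols are the pairs without dipyridamole, green ones those with it. The chaperone list lies at 0.23 and 0.32 without dipyridamole and at -0.18 and -0.07 with it.

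Part of the difference followed base composition. Across 11485 protein-coding genes the difference and the GC content of the transcript had a Spearman rho of -0.197, without a p since genes share libraries. Median differences ran from 0.04 in the decile with the lowest GC content to -0.11 in the highest. The share of genes that fell was 2.35% in the lowest decile and 21.9% in the highest. The dipyridamole pairs had the opposite slope, with rho of 0.461 and 0.299. After GC centring 1781 genes passed, 915 higher (6.76%) and 866 lower (6.4%), and 1667 of the calls were shared in direction. The part of fragment or library chemistry in this trend was not tested.

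**Figure D5:**
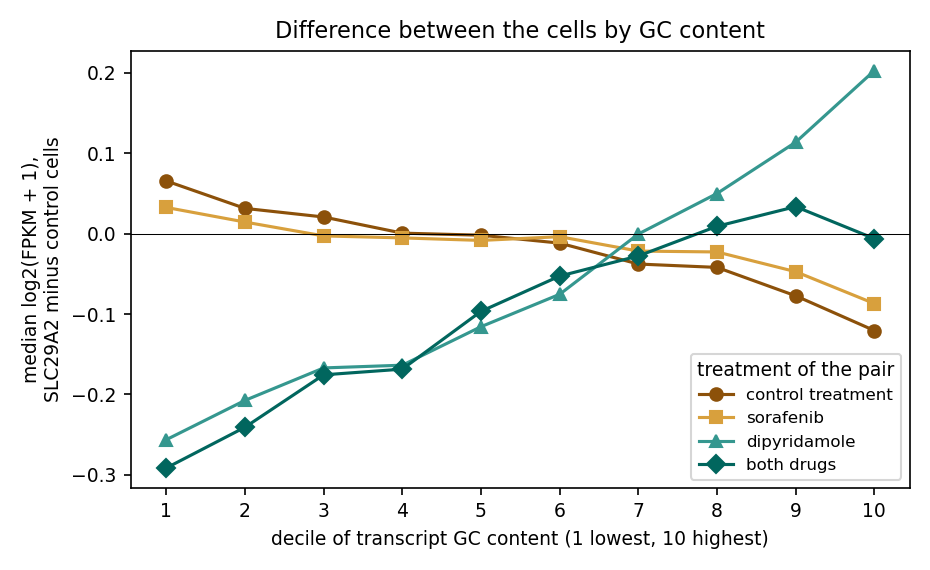
Median difference between SLC29A2 and control cells on the log2(FPKM + 1) scale by decile of transcript GC content (1 lowest, 10 highest), for protein-coding genes in each of the 4 library pairs. The 2 pairs without dipyridamole slope down and the 2 with it rise over most deciles.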

How the data were processed

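RNA of 8 SK-Hep1 samples, 1 library for each of 8 conditions, was sequenced, and 4 libraries entered the comparison. The deposited values are FPKM per gene. Per the submitters' processing notes the build was GRCh38.p12, and edgeR, HTSeq 0.6.1 and TopHat2 2.0 are listed with no role. Per the labels' protocols, poly(A) RNA was used with a NEBNext Ultra kit. Strand is not stated, so antisense partners may share reads.

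Of 58302 genes, 58039 matched GENCODE 29, and current symbols are used. FPKM times mean transcript length fell on whole reads for 93.5% to 93.7% of values per library (tolerance 0.01), and reads were recovered for 29648 of 31551 genes above 0. Genes averaging at least 1 FPKM over the 4 libraries (13554 of 28042 above 0) were tested as log2(FPKM + 1) with limma 3.58.1 (R 4.3.3), with a mean-variance trend and a sorafenib term, two-sided, Benjamini-Hochberg over all genes tested, at 0.05. Interactions were fitted over 8 libraries. The scripts were tested on simulated data first. Alternatives were other pseudocounts, filters and scalings, a fit over all libraries, also with 1 left out, voom on the recovered reads, and GC centring, which was chosen after seeing the data. Nothing in the labels gives replicate cultures, so p-values measure only the spread between these libraries.

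The members and lists were chosen with earlier results of these data known. The rule for names covered SLC29A2 and the transporters, every gene past the threshold, the 15 largest differences in each direction, up to 4 members of each list, neighbours of SLC29A2 and the smallest interaction p-values. The text names part of these, and EDEM1, XBP1, VIM, MT-CO1 and MT-CO2 were named after their values were seen. Promoters were RefSeq sequence on GRCh38.p14. Some items are not reported here.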

Additional observations from a re-analysis of the deposited data

How the results depend on the processing

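The count of 2228 genes became 0 with no filter on low values, with no sorafenib term and with no mean-variance trend, and 1 (SLC29A2) in the fit over 8 libraries and with any 1 of the 4 libraries left out of it. The SLC29A2 difference of 7.97 was the same size with no filter, no sorafenib term and no trend but no longer passed, at adjusted p = 0.159, 0.0553 and 0.173; it ranged from 7.43 to 8.51 with 1 library left out. Pseudocounts of 0.1 and 5 gave 2124 and 1892 calls, a minimum of 5 FPKM 2731, and size factors 2120 (43.5% higher, against 48.1%). Voom on recovered reads called 3165 of 12478 genes, and 1920 of the 2054 calls it held were shared in direction. The count of genes 0.5 apart in both pairs, 254, became 489 and 45 with pseudocounts of 0.1 and 5, 445 with no filter and 106 at a minimum of 5 FPKM. The cell type by dipyridamole count was 1656 with all pairwise interactions and 0 to 1 with 1 library left out. Of 117 genes named, 11 turned sign when 1 library was left out of the 8-library fit: the ranges were -0.29 to 0.16 for SLC29A3, -0.16 to 0.73 for NT5E, -0.10 to 0.57 for HSPA5, -0.068 to 0.50 for CRELD2, -0.11 to 0.24 for XBP1, -0.31 to 0.58 for MT-CO1, -0.21 to 0.56 for MT-CO2, -0.045 to 0.72 for MT-ATP8, -0.56 to 0.14 for PLAT, -0.47 to 0.10 for MMP14 and -0.20 to 0.068 for VIM. Others kept their sign but moved widely: 0.13 to 1.64 for SERPINB2, 0.089 to 1.22 for IL6, 0.0091 to 0.74 for MANF, -1.44 to -0.23 for CREB3L1 and -0.92 to -0.074 for H1-10. Among the named calls, ADORA2B, NT5M, SREBF1, RSAD2, KRT8 and CCNE1 were lost with a pseudocount of 5, SREBF1 and RSAD2 with 0.1, PFAS, RSAD2, KRT8 and CCNE1 with size factors, and 8 with GC centring, at adjusted p between 0.05 and 0.40. The cause of these shifts was not tested. No paired analysis was possible because each condition had 1 library, beyond the matching by sorafenib status that the 4-library fit already holds as a term.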

Other observations

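The protein-coding genes below had the smallest unadjusted p for the cell type by dipyridamole interaction, 3 of each sign, and were chosen for it. None passed (limma adjusted p = 0.106 for each), and all 6 passed with all pairwise interactions in the model (adjusted p = 0.0246 for each). MUC1, an epithelial mucin, differed by 0.50 and 0.53 between SLC29A2 and control cells without dipyridamole, and by -1.20 and -1.23 with it. AMH, anti-Müllerian hormone, differed by 0.23 and 0.76 without it and by -1.28 and -1.54 with it, and LRRC71 by 0.61 and 0.74 without it and by -0.67 and -0.75 with it. MSRB1, a methionine sulfoxide reductase, ran the other way, at -0.47 and -0.56 without dipyridamole and 0.76 and 0.79 with it. C8orf82 gave -0.53 and -0.57 without it and 0.82 and 0.56 with it, and EEF1A2, a translation elongation factor, -0.41 and -0.37 without it and 0.80 and 0.73 with it.

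Histone genes split. Of 12 measured, 2 rose and 5 fell in SLC29A2 cells, where 7.91% and 8.53% of all genes did. Poly(A) selection captures replication-dependent histone RNA poorly. H1-10, a polyadenylated linker histone gene, had 59.1 and 52.4 FPKM in SLC29A2 cells, against 78.0 and 79.8 FPKM in control cells (-0.50 ± 0.06). H4C8 had 6.12 and 4.59 FPKM in SLC29A2 cells, against 4.35 and 2.05 FPKM in control cells (0.64 ± 0.16), and its reads can be split among near-identical H4 genes. Of 24 p53 targets 4 rose and 4 fell, where 7.91% and 8.53% of all genes did, and 2 fell with GC centring. PMAIP1, the BH3-only protein NOXA, rose by 0.49 ± 0.09, and CDKN1A, the kinase inhibitor p21, fell by 0.32 ± 0.06.

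Several of the largest differences rested on low levels. CCND2, cyclin D2, had 0.263 and 0.594 FPKM in SLC29A2 cells, against 1.15 and 2.46 FPKM in control cells, and LBH had 0.549 and 1.31 FPKM in SLC29A2 cells, against 2.66 and 3.18 FPKM in control cells. KRT16, a keratin of stressed epidermis, and KRT39, a hair keratin, fell by 0.95 ± 0.22 and 0.89 ± 0.22. RSAD2, the antiviral protein viperin, had 1.64 and 1.63 FPKM in SLC29A2 cells, against 0.504 and 0.593 FPKM in control cells (0.77 ± 0.22, adjusted p = 0.0499, and 0.064 with GC centring). CITED4, a transcriptional coactivator, fell by 0.92 ± 0.14. FERMT3, an integrin activator of blood cells, rose by 0.79 ± 0.17, TTC9B by 0.75 ± 0.17, and LHB, the beta subunit of luteinizing hormone, by 0.86 ± 0.14; FERMT3 and LHB overlap a gene on the other strand.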
